A study of Mus musculus with 36 samples.

Results

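Thapsigargin was added to mouse embryonic fibroblasts that also received halofuginone, and the transcript levels were compared with those of cells given halofuginone only. The comparison rests on 6 of the 36 RNA-seq libraries of the series, 3 for wild-type (WT) cells with halofuginone and thapsigargin and 3 for WT cells with halofuginone, chosen by the genotype and treatment in the labels. A pair of further contrasts stands beside it, each on 6 other libraries: thapsigargin against the solvent DMSO in WT cells, and thapsigargin added to halofuginone in cells whose label gives them as lacking PERK (Perk-null). The cells are named only as MEF (fibroblasts grown from mouse embryos). Neither doses nor treatment times nor batches are given in the labels, which also do not say how many embryos or clones each genotype came from. Replicates are numbered 1 to 3 without a statement that they were separate cultures. The p-values therefore measure a spread between libraries within groups, estimated over all 36, which may be technical. The question of the comparison is what stress of the endoplasmic reticulum (ER) adds when eIF2 alpha phosphorylation is already switched on through another kinase.

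The ER folds secreted and membrane proteins with calcium-dependent chaperones. Thapsigargin blocks the SERCA pump that fills the ER with calcium, and unfolded proteins then engage the sensors IRE1, ATF6 and PERK of the unfolded protein response (UPR). IRE1 splices Xbp1 mRNA and cleaves some other mRNAs, ATF6 is cut in the Golgi into a transcription factor, and both raise genes of protein folding, degradation and transport. PERK phosphorylates eIF2 alpha, which starts the integrated stress response (ISR): general translation slows while ATF4 is translated and raises genes of amino acid supply and stress adaptation. Halofuginone reaches the ISR without the ER, since it inhibits prolyl-tRNA synthetase and uncharged tRNA activates the kinase GCN2.

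Total counts were between 35663502 and 36899992 in the 6 libraries and between 32454261 and 37178124 in all 36. Levels are given as CPM (counts scaled to a common library size), changes as log2 fold changes with their standard error (SE). Eif2ak3, the gene of PERK, was read at 10.1, 7.66 and 10.1 CPM in the Perk-null halofuginone libraries and at 29.3, 32.7 and 55.5 CPM in the WT halofuginone libraries, and with thapsigargin added at 32.7, 28.1 and 35.4 against 91.7, 110.0 and 105 CPM, with no overlap between the genotypes in either treatment. The 8 fibroblast markers summed to between 10296 and 11164 CPM with halofuginone and between 8884 and 10759 CPM with thapsigargin added, and all 4 skeletal muscle markers had 10 counts or fewer in each of the 6 libraries. Of the other marker sums, those of macrophage genes (6.86 to 8.47 against 12.6 to 25.4 CPM), epithelial genes (15.2 to 22.5 against 7.78 to 10.8 CPM), endothelial genes (3.04 to 4.71 against 1.85 to 2.40 CPM) and chondrocyte genes (79.4 to 91.3 against 45.9 to 60.99 CPM) did not overlap between the groups. For comparison, 25.8% of all tested genes did not overlap between these 6 libraries. In the epithelial list Krt18 was called lower, at -1.70, while Krt8 (-0.84), Cdh1 (-0.34) and Krt14 (-0.17) were not called. Neural markers summed to 10.4 to 24 against 22.0 to 54.7 CPM and adipocyte markers to 1.20 to 2.57 against 0.354 to 2.14 CPM. Cd14 was the highest of the macrophage markers in all 6 libraries, with a log2 change of 1.87, against -0.17 for Cd68 and -0.18 for Csf1r. Ptprc went from 5, 13 and 31 counts to 0, 7 and 6, and Lyz2 had at most 2 counts. Most of the chondrocyte sum was Sox9, while Acan had at most 2 counts, and most of the neural sum was Tubb3, with a change of 1.05. Snap25 and Sox10 of the neural list, Emcn of the endothelial list and Plin1 and Cfd of the adipocyte list were at 0 in all 6 libraries. The part of other cells in the results was not tested, and in bulk RNA fewer cells of a type and less RNA per cell cannot be told apart.

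Replicate 3 stood apart in both groups. A chi-square of the counts per degree of freedom was 78.1 and 84.6 between halofuginone replicate 3 and the other two, against 15.3 between replicates 1 and 2, and with thapsigargin added it was 57.1 and 82.1 against 20.5. Of the 36 pairs of libraries within a group in the series, none came below 9.66, and no replicates were merged. Within the Perk-null groups, which enter the same estimate of spread, no pair exceeded 41.1, so that estimate can understate the spread of the groups compared here.

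Thapsigargin on top of halofuginone changed 2241 of 16065 tested genes (13.9%), 1306 higher (8.13%) and 935 lower (5.82%), by the quasi-likelihood test of edgeR at a Benjamini-Hochberg adjusted p under 0.05. Of these, 483 (3.01%) changed by at least 1 on the log2 scale, 344 higher and 139 lower. Same-numbered libraries of both groups deviated together from their group means, which the fit above ignores. With the replicate number as a block the count was 3930, which held all 2241 genes. List counts given with the block are to be read against this larger total. The count was 1384 without replicate 2 of the combination, and 1354, 1226 and 1494 without the halofuginone and combination libraries numbered 1, 2 and 3. When counts were scaled by library size only, 76.2% of called genes were higher, against 58.3% with TMM scaling. None of the 2241 genes changed sign in any of these fits. The count was lower still in a fit of only both groups, and is given below with the dependence on processing.

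For reference, thapsigargin alone changed 7646 genes (47.6%) in WT cells, 3998 higher (24.9%) and 3648 lower (22.7%). The test of the difference between both WT responses called 5047 genes (31.4%), 2414 with a more positive change when halofuginone was present (15%) and 2633 with a more negative one (16.4%). Of the 1306 genes called higher on top of halofuginone 659 (50.5%, and 16.5% of those called higher alone) were also higher with thapsigargin alone and 170 (13.0%) were lower. Of the 935 called lower 492 (52.6%, and 13.5% of those called lower alone) were also lower alone and 133 (14.2%) were higher. In Perk-null cells thapsigargin on top of halofuginone changed 1033 genes (6.43%), 526 higher (3.27%) and 507 lower (3.16%). The difference between the genotypes was called for 226 genes (1.41%), 40 more positive in Perk-null cells (0.249%) and 186 more negative (1.16%).

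**Figure D1:**
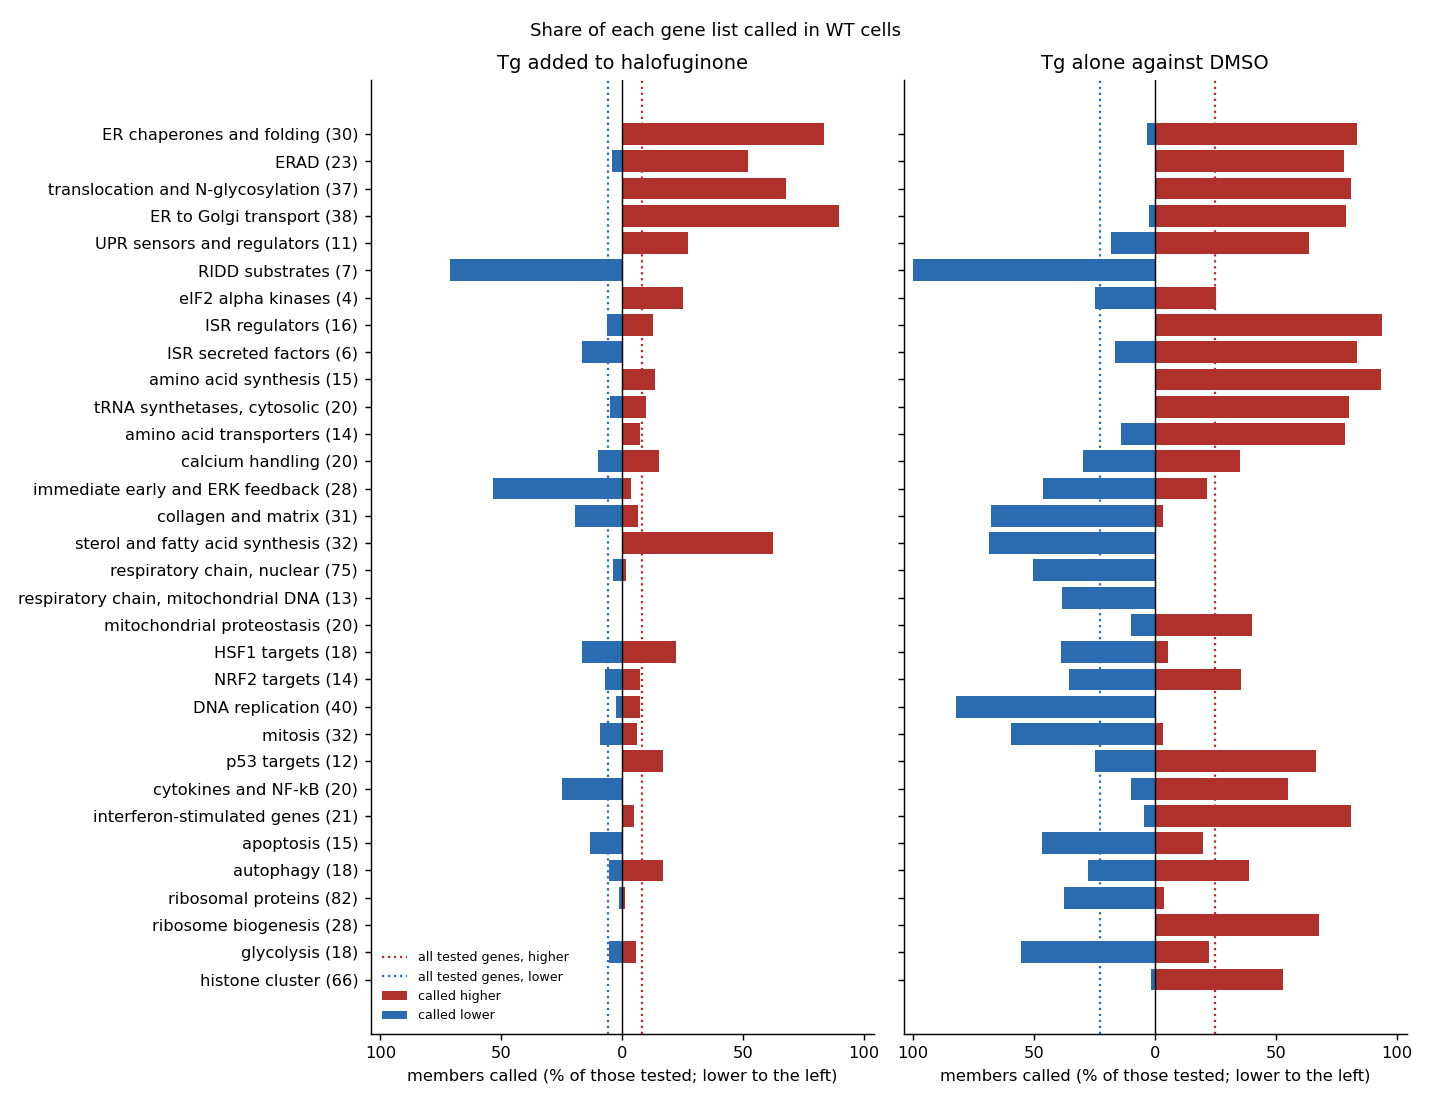
Share of the members of 32 gene lists that were called, in percent of the members tested, for thapsigargin (Tg) added to halofuginone (left) and for Tg alone against DMSO (right) in WT cells. Red bars to the right are members called higher, blue bars to the left members called lower, dotted lines the shares of all tested genes, and the number of tested members stands in brackets. On the left panel the 4 ER lists at the top and the sterol list reach far past the dotted line for higher. The lists of RIDD substrates (mRNAs that IRE1 can cleave) and immediate early genes reach far past that for lower. On the right panel the 4 ER lists and the ISR lists are among those far past the line for higher.

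The ER folding machinery rose. Of 30 chaperone and folding genes tested, 25 were called higher and 0 lower, with a median log2 change of 1.81 against 0.00 over all tested genes, and 18 rose by at least 1. Hspa5 encodes BiP, the main Hsp70 chaperone of the ER. Its level was 4130.5, 3927 and 3036 CPM in the halofuginone libraries and 16463, 19132 and 12035 CPM with thapsigargin added. The groups did not overlap, and the rise was 2.10 (SE 0.15, edgeR adjusted p 1.40e-12), or 4.29-fold. Without halofuginone Hspa5 went from 1423, 1604 and 1143 CPM to 22340.5, 19329.8 and 18473 CPM, so that every halofuginone library stood above every DMSO library, while the combination overlapped with thapsigargin alone. The response with halofuginone minus that without was -1.75 (SE 0.20, edgeR adjusted p 7.24e-08). In the annotation Hspa5 overlaps Rabepk, and its counts can include reads of that gene.

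Sdf2l1, a partner of BiP that keeps misfolded clients soluble, had the largest rise in the comparison by the naming rule. It stood at 3.22, 2.73 and 3.52 CPM with halofuginone and at 189.5, 216 and 115 CPM with thapsigargin added, a change of 5.78 (SE 0.33, edgeR adjusted p 1.30e-14). No library of one group came near the other, although combination replicate 3 lay well under replicates 1 and 2. The DMSO libraries held 16.5, 19.8 and 14.2 CPM and those with thapsigargin alone 347, 282 and 272 CPM. Here the halofuginone libraries started below DMSO, the combination ended below thapsigargin alone, and the response with halofuginone minus that without was 1.63 (SE 0.40, edgeR adjusted p 0.00208).

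Creld2, a cysteine-rich ER protein, went from 26.7, 27 and 24.5 CPM to 516, 566 and 344 CPM, and Hyou1, the large Hsp70-like chaperone and nucleotide exchange factor of BiP, from 96.2, 90.0 and 93.1 CPM to 1088, 1196 and 783 CPM. Manf, a small calcium-sensitive ER protein that is released under stress, went from 154, 164 and 162 CPM to 1621, 1476 and 1122 CPM. Their rises were 4.19 (SE 0.16), 3.46 (SE 0.14) and 3.14 (SE 0.14), with edgeR adjusted p of at most 4.87e-17, and in each of these genes combination replicate 3 was the lowest of its group and still above every halofuginone library. The difference from the response without halofuginone did not pass the threshold for any of these 3 genes, at 0.46 (SE 0.21), 0.32 (SE 0.18) and 0.38 (SE 0.19).

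Among the co-chaperones, Dnajb9, a J-domain protein that also restrains IRE1, went from 13.8, 11.2 and 10.5 CPM to 115, 122 and 68.6 CPM, a rise of 3.10 (SE 0.16, edgeR adjusted p 3.01e-15). Dnajb11, which feeds unfolded proteins to BiP, rose by 2.04 (SE 0.10) and Hsp90b1, the ER member of the Hsp90 family, by 2.21 (SE 0.13), from 1744, 1407 and 1354 CPM to 7629.7, 8128 and 5152 CPM. No halofuginone library reached a combination library for any of these. Oxidative folding genes rose with them: the oxidase Ero1lb by 2.98, the isomerases Pdia4 by 2.72 and Pdia6 by 2.06, and Calr (calreticulin, the calcium-binding lectin chaperone) by 2.17. Ero1l, the paralogue of Ero1lb and also a target of the ISR, did not pass, at 0.38 (SE 0.19, edgeR adjusted p 0.19), against a rise of 2.89 with thapsigargin alone, though it passed without the filter on low counts (edgeR adjusted p 0.0219). The 5 members that missed the threshold were Cnpy2, Ero1l, Sdf2, Ppib and Fkbp7, with values from -0.03 to 0.44. Of the 25 risen genes, combination replicate 3 was the lowest of its group in 22. Without both libraries numbered 3 the list had 24 genes higher and a median of 1.89, and with the replicate block 28. The response with halofuginone minus that without was called for 12 of the 30 genes, 8 more positive and 4 more negative.

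Many promoters of this list carry the letters of the ER stress response element (ERSE: CCAAT and CCACG with 9 bases between them), where ATF6 binds next to NF-Y. RefSeq promoter windows of GRCm38.p6, from 250 bases before to 50 after the start of a gene, were searched on both strands. They are shown here because the motif is found in 8 of 26 matched genes of the list (30.8%) against 37 of 27025 genes with a window (0.137%) and 22 of 11743 tested genes (0.187%). The 250 bases before the start of Hspa5 and Hsp90b1 read as follows, with both motif parts of each ERSE in capitals, on the plus strand for Hspa5 (chr2:34771840-34772089) and the minus strand for Hsp90b1 (chr10:86705445-86705694).
Hspa5: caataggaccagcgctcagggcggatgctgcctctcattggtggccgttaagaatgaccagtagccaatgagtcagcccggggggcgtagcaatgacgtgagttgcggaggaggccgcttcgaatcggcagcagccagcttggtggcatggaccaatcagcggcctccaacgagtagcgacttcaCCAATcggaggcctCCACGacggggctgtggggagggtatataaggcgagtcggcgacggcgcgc
Hsp90b1: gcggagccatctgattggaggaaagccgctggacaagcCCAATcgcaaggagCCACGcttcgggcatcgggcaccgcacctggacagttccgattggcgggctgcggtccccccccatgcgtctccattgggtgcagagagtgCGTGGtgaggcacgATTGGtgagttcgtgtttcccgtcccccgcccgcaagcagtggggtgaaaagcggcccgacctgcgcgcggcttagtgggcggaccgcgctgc
In Hspa5 the match starts 65 bases before the start, and in Hsp90b1 one match starts 212 bases before the start and the other, in reverse, 107 bases before it.

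The other ERSE of the list that lie before the start, and those of Syvn1 and Herpud1, are set beside these to show the fixed motif parts and the varying bases between them. Each is printed with 8 bases on either side, and a match on the opposite strand reads CGTGG first and ATTGG second. Herpud1 carries the short form, ERSE-II (ATTGGNCCACG), which 12 of 27025 genes hold (0.044%).
Creld2, chr15:88819512-88819546, plus strand: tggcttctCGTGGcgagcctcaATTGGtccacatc
Calr, chr8:84847067-84847101, minus strand: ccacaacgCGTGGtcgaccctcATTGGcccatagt
Canx, chr11:50325792-50325826, minus strand: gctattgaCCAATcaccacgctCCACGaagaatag
Dnajc3, chr14:118937819-118937853, plus strand: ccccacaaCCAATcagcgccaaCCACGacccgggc
Ero1lb, chr13:12565674-12565708, plus strand: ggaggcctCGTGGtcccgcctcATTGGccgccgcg
Pdia6, chr12:17266483-17266517, plus strand: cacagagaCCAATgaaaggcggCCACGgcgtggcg
Syvn1, chr19:6046524-6046558, plus strand: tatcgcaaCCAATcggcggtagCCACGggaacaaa
Herpud1, chr8:94386369-94386395, plus strand: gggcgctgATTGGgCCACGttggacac
The site of Creld2 is also the ERSE of Alg12, a mannosyltransferase gene that starts nearby on the opposite strand, and both genes rose (4.19 and 2.04). All genes printed here were called higher. Not every gene with a match was called: the ERAD gene Derl3 holds an ERSE 156 bases before its start. It stayed at 0.619, 0.557 and 1.14 CPM with halofuginone and 0.577, 0.715 and 0.935 CPM with thapsigargin added, low levels at which a change is hard to detect. Over the whole comparison the ERSE was in 11 of 1044 matched genes called higher (1.05%) and 0 of 693 called lower. Among all 11743 matched tested genes 22 held it (0.187%), a share at which few matches would be found among 693 genes. The 11 genes include Alg12 and all genes printed above with a full ERSE, so this count largely repeats that of the lists. The related UPRE (TGACGTGG, whose reverse complement begins with the same CCACG), read by XBP1 and ATF6, was in 31 of the genes called higher (2.97%), in 5 of those called lower (0.722%) in 115 of 11743 tested genes (0.979%) and in 0.714% of all genes with a window. These matches are a description of the letters, and binding was not measured.

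The steps after folding rose as well. ER-associated degradation (ERAD) returns misfolded proteins to the cytosol for the proteasome. Of its 23 tested genes 12 were called higher and 1 lower (Ubxn4, -0.25), with a median of 0.45. The response with halofuginone was called more positive than that without for 2 of the 23 and more negative for 10, against 15% and 16.4% of all tested genes. Syvn1, the ubiquitin ligase HRD1 at the centre of the pathway, went from 33.0, 34.8 and 40.5 CPM to 217, 164 and 139.8 CPM and its adaptor Sel1l from 43.2, 35.5 and 35.6 CPM to 169.9, 169.8 and 124 CPM, rises of 2.26 (SE 0.15) and 2.02 (SE 0.16). The groups were clear of each other for both genes, although Syvn1 overlaps Mrpl49 in the annotation. The lectins Edem1 and Edem2, which take glycoproteins out of folding, rose by 1.39 and 1.35. The call of Ubxn4 was lost without any 1 of 5 of the 6 libraries, the exception being halofuginone replicate 2, and under library-size scaling.

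Herpud1, a scaffold of the same ligase complex, is a target of both ATF6 and ATF4. It stood at 54.9, 57 and 51.6 CPM in DMSO, 296, 284 and 307 CPM with halofuginone, 1158, 1130.3 and 866 CPM with the combination and 1212, 1025 and 1095 CPM with thapsigargin alone. The halofuginone libraries lay between DMSO and both thapsigargin groups, whose ranges overlapped. The rise on top of halofuginone was 1.83 (SE 0.16, edgeR adjusted p 1.61e-10), and that value minus the rise without halofuginone was -2.52 (SE 0.22, edgeR adjusted p 4.03e-10).

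Of 37 genes for entry into the ER and N-glycosylation, 25 were called higher and 0 lower, with a median of 0.67. Alg2 and Alg12, mannosyltransferases that build the sugar donor, rose by 2.32 (SE 0.13) and 2.04 (SE 0.14). Sec61a1, the channel of the translocon, went from 187, 177 and 177 CPM to 453, 473 and 378 CPM, a rise of 1.27, and Gfpt1, the entry enzyme of hexosamine synthesis, rose by 1.26. Every member had a positive value, from 0.01 (Ganab) upward. The response differed from that without halofuginone for 7 genes upward and 5 downward.

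Transport from the ER to the Golgi had the highest share of calls of all lists: 34 of 38 genes were called higher and 0 lower, with a median of 0.74. Arfgap3, a GTPase activator of the COPI coat, went from 25.0, 26.8 and 19.6 CPM to 103, 131 and 85.7 CPM, a rise of 2.16 (SE 0.13, edgeR adjusted p 7.98e-14). Mcfd2, part of a cargo receptor, rose by 1.37 (SE 0.11). The COPII coat genes Sec23b and Sec24d rose by 1.17 and 1.09, while Sec24b of the same coat was not called (-0.03). Kdelr2, a receptor that returns chaperones to the ER, rose by 0.72. The UPRE was in 7 of 32 matched promoters of this list (21.9%), and no ERSE was found there. With thapsigargin alone 30 of the 38 were called higher and 1 lower, and the response differed for 8 genes upward and 1 downward.

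Of the genes of the UPR sensors, Atf6 and Ern1 were not called, while Eif2ak3 was, as given below. Of 11 sensors and regulators 3 were called higher (27.3%, against 8.13% of all tested genes) and 0 lower. Xbp1, the transcription factor spliced by IRE1, went from 163, 177 and 126 CPM to 468, 527 and 448 CPM, a rise of 1.63 (SE 0.14, edgeR adjusted p 3.60e-10) with no overlap of the groups. These counts do not tell spliced from unspliced Xbp1. Creb3l2, an ATF6-like factor, and Wfs1, an ER membrane glycoprotein, rose by 2.00 and 1.63. Atf6 read 227, 204 and 219 CPM with halofuginone and 245, 220.3 and 211 CPM with thapsigargin added, a change of 0.06 (SE 0.16, edgeR adjusted p 0.88). The groups overlapped, while in DMSO Atf6 read 41.2, 32.3 and 46.1 CPM and with thapsigargin alone 180.5, 172 and 215 CPM, and the responses differed by -2.19 (SE 0.23, edgeR adjusted p 2.15e-08). Ern1, the gene of IRE1, likewise did not pass, at -0.07 (SE 0.19, edgeR adjusted p 0.879), against a rise of 1.5 with thapsigargin alone.

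Of the eIF2 alpha kinases, Eif2ak3 alone was called. It went from 29.3, 32.7 and 55.5 CPM to 91.7, 110.0 and 105 CPM, a rise of 1.38 (SE 0.18, edgeR adjusted p 9.16e-07), and the difference from the rise with thapsigargin alone was -0.10 (SE 0.25, edgeR adjusted p 0.797). Eif2ak1 (HRI), Eif2ak2 (PKR) and Eif2ak4 (GCN2) had values of 0.19, -0.30 and -0.21. With the replicate block Eif2ak1 passed, at 0.19 (edgeR adjusted p 0.0457).

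IRE1 can also cut mRNAs at the ER, which is known as RIDD. Of 7 reported RIDD substrates 5 were called lower and 0 higher, with a median of -0.50. Scara3, a scavenger receptor, went from 5.36, 5.13 and 5.33 CPM to 0.952, 0.935 and 2.18 CPM and Hgsnat, a lysosomal acetyltransferase, from 86.4, 95.7 and 73.5 CPM to 23.2, 24.6 and 29.0 CPM, changes of -1.96 (SE 0.25, edgeR adjusted p 5.61e-07) and -1.74 (SE 0.11, edgeR adjusted p 6.66e-14). Bloc1s1, the substrate most used as a readout, went from 24.4, 23.5 and 18.3 CPM to 11.4, 11.4 and 10.2 CPM, a change of -1.0 (SE 0.22, edgeR adjusted p 0.00173). The groups were separate for these 3 genes, and Bloc1s1 overlaps Rdh5 in the annotation. Galnt10 (-0.50) and Col6a1 (-0.38) fell by less, and Pdgfrb (0.19) and Pmp22 (0.18) were not called. With thapsigargin alone all 7 were called lower, and the falls were smaller with halofuginone for 4 of them. Transcript levels do not separate cleavage from lower transcription.

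**Figure D2:**
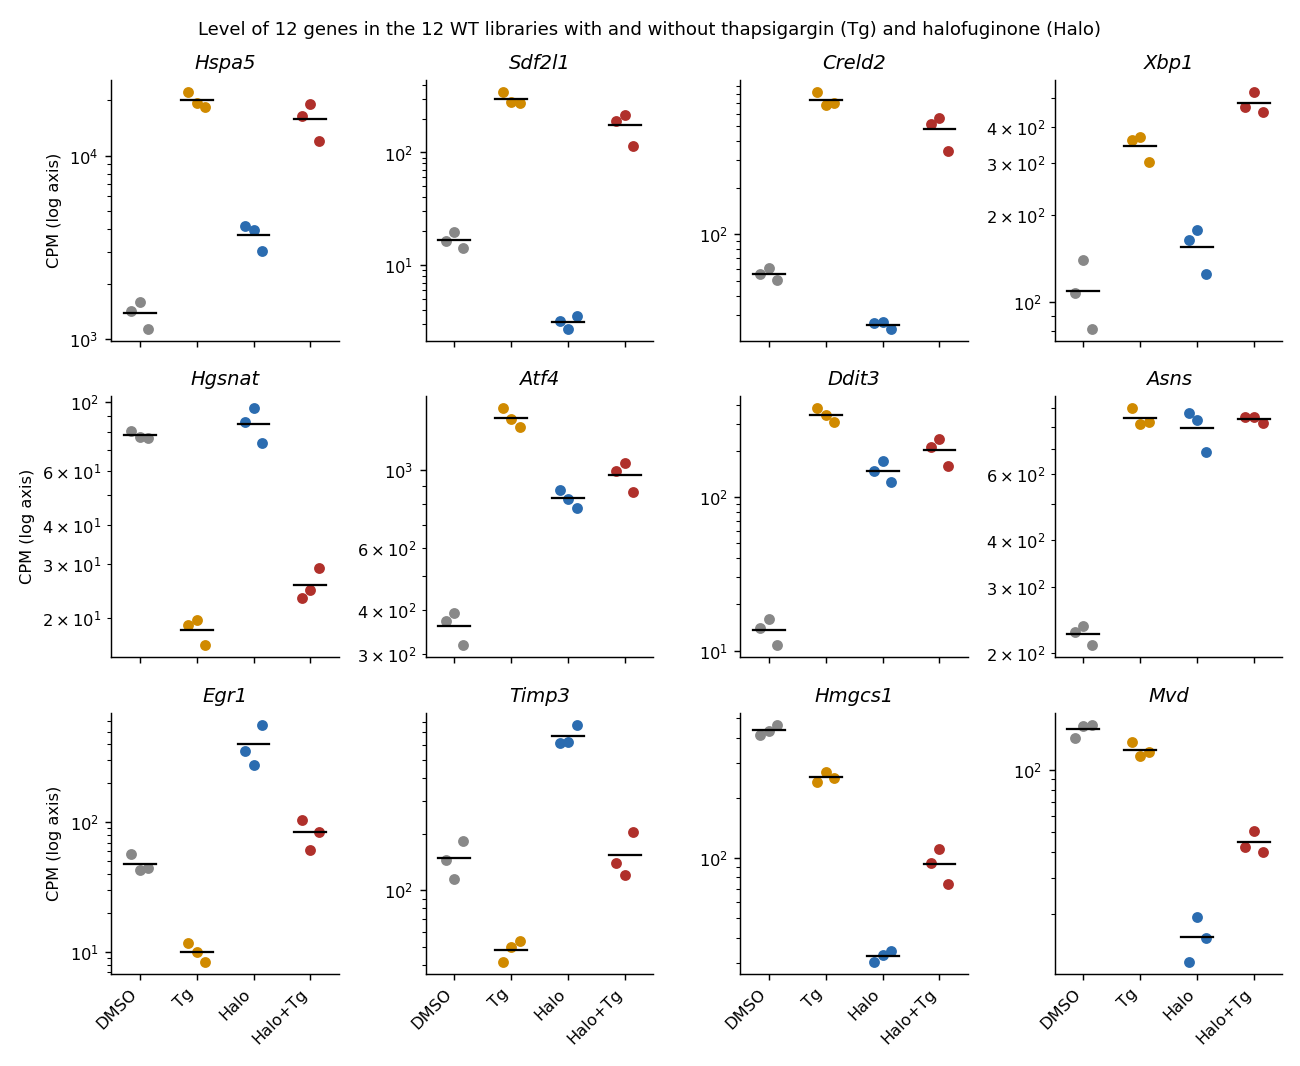
CPM on a log axis of 12 genes in the 12 WT libraries given DMSO, thapsigargin (Tg), halofuginone (Halo) or both, with 1 point per library and a bar at the mean of each group. Hspa5, Sdf2l1, Creld2 and Xbp1 are high in both groups with Tg, Atf4, Ddit3 and Asns are high in every group but DMSO, and Hmgcs1 and Mvd are lowest with halofuginone only.

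Few genes of the ISR were called when thapsigargin was added to halofuginone. Atf4, Ddit3, Atf3 and Asns, given below with their DMSO levels, read higher with halofuginone than in DMSO, though halofuginone against DMSO was not tested. Of 16 ISR regulators 2 were called higher and 1 lower, near the background of 13.9% of genes called, and the median was 0.14. With thapsigargin alone 15 of the 16 were called higher and the median was 1.83. Atf4, the central transcription factor, read 371, 393 and 317 CPM in DMSO, 881, 829 and 782 CPM with halofuginone and 992, 1049.6 and 865 CPM with the combination. The last groups overlapped, and the change between them was 0.22 (SE 0.11, edgeR adjusted p 0.179). Scaled by library size only, Atf4 passed, at 0.31 (edgeR adjusted p 0.0456). The transcript level does not report the translation of Atf4, which is its main point of control.

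Ddit3, the factor CHOP, read 13.9, 16.1 and 10.8 CPM in DMSO, 149, 173 and 125 CPM with halofuginone, 212, 238 and 160.2 CPM with the combination and 381, 344 and 309 CPM with thapsigargin alone. Halofuginone and combination libraries overlapped, and the change was 0.45 (SE 0.20, edgeR adjusted p 0.15). Without the filter on low counts the same change passed, with an edgeR adjusted p of 0.00365. Atf3, a repressor of the same family, stood at 153, 148 and 153 CPM with halofuginone, 176, 179 and 181 CPM with thapsigargin added and 1.09, 1.10 and 1.27 CPM in DMSO. The groups with and without thapsigargin did not overlap, yet the change was 0.24 (SE 0.18, edgeR adjusted p 0.449) on top of halofuginone and 6.17 (SE 0.26) alone, and the responses differed by -5.94 (SE 0.31, edgeR adjusted p 1.44e-14). Ddit3 overlaps Mars and Mbd6 in the annotation.

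Chac1, which degrades glutathione, was one of the ISR regulators that passed. It went from 150.4, 141 and 132 CPM to 237, 225 and 231 CPM, a rise of 0.71 (SE 0.19, edgeR adjusted p 0.0112) with no overlap. It did not pass without the pair of libraries of any one number. Ddit4, an inhibitor of mTORC1, was the other regulator called higher, at 0.91 (SE 0.27, edgeR adjusted p 0.0182), and lost the call without replicate 1 or 2 of the combination or halofuginone replicate 3. Ppp1r15b, the constitutive targeting subunit of the eIF2 alpha phosphatase, fell, with a change of -0.39 (SE 0.09, edgeR adjusted p 0.00249). Of 6 secreted ISR factors 0 were called higher and 1 lower, with a median of 0.40: Angptl4, an inhibitor of lipoprotein lipase, at -0.75 (SE 0.24, edgeR adjusted p 0.0316), a call lost without any 1 library of these groups except halofuginone replicate 3. The inducible phosphatase subunit Ppp1r15a (0.17, SE 0.21), the pseudokinase Trib3 (0.46, SE 0.26) and the ISR-induced hormones Gdf15 (0.66, SE 0.35) and Fgf21 (1.02, SE 0.38) did not pass. Fgf21 passed with the replicate block, at 1.05 (edgeR adjusted p 0.0197), and without combination replicate 3 or halofuginone replicate 2. Trib3 and Fgf21 also passed without the filter on low counts (edgeR adjusted p 0.00254 and 1.96e-05).

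The metabolic side of the ISR showed the same pattern in counts. Asns, asparagine synthetase, read 871, 835 and 689 CPM with halofuginone and 853, 853 and 822 CPM with the combination, against 227, 235 and 209 CPM in DMSO. Both treated groups overlapped, and the change was 0.08 (SE 0.10, edgeR adjusted p 0.69). Psat1 of serine synthesis likewise overlapped, at -0.03 (SE 0.11, edgeR adjusted p 0.908). Of 15 genes of amino acid synthesis 2 were called higher (Bcat1, 0.47, and Aldh1l2, 0.45) and 0 lower, of 20 cytosolic tRNA synthetases 2 were higher (Qars, 0.43, and Farsa, 0.29) and 1 lower (Rars, -0.38), and of 14 amino acid transporters 1 was higher (Slc43a2, 1.02) and 0 lower. With thapsigargin alone 14, 16 and 11 genes of these lists were called higher, and the test of the difference called 14, 16 and 8 genes smaller with halofuginone. With the replicate block 1 transporter gene was higher and 2 were lower, and 5 genes of amino acid synthesis were called higher in place of 2, and with single libraries left out the count ran from 1 to 4. The calls of Aldh1l2 and Farsa were lost without replicate 1 or 2 of the combination or halofuginone replicate 3. Those of Rars and Slc43a2 were lost without combination replicate 3 or halofuginone replicate 1 or 2, and that of Slc43a2 also without combination replicate 2.

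**Figure D3:**
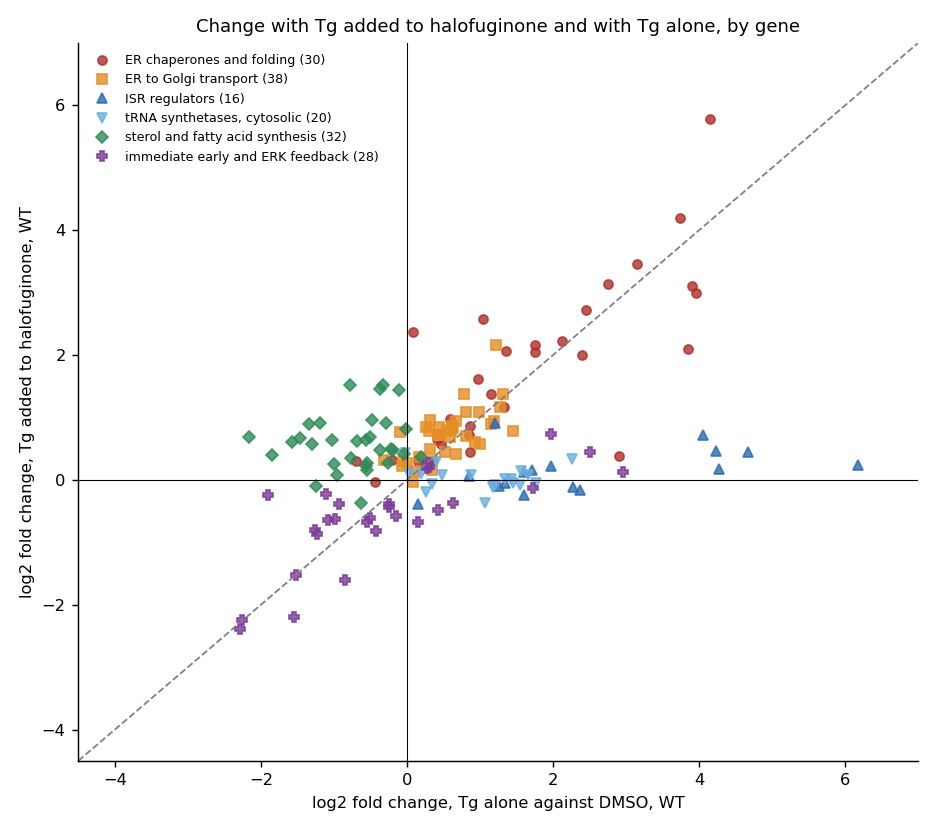
Log2 fold change of each gene of 6 lists with thapsigargin (Tg) added to halofuginone (vertical) against that with Tg alone (horizontal) in WT cells; the 2 axes share no library, and the dashed line marks equal changes. ER chaperone and transport genes lie around the line, most ISR regulators and tRNA synthetases lie near the horizontal axis to the right, and 29 of 32 sterol genes lie in the upper left.

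Immediate early genes, which growth factor signalling through ERK and calcium switches on within minutes, were lower. Of 28 such genes and ERK feedback regulators 15 were called lower and 1 higher, with a median of -0.53. Egr1, a zinc finger factor, went from 356, 277 and 567 CPM to 105, 61.7 and 85.0 CPM, a change of -2.25 (SE 0.21, edgeR adjusted p 1.87e-09). Egr2 went from 28.6, 27.3 and 38.7 CPM to 6.75, 5.28 and 5.95 CPM, a change of -2.40 (SE 0.27, edgeR adjusted p 8.01e-08), the largest fall by the naming rule. The groups were separate in both genes, with halofuginone replicate 3 the highest of its group. In DMSO the means were 48.2 CPM for Egr1 and 6.88 CPM for Egr2, below those with halofuginone, and thapsigargin alone took them to 10.1 and 1.41 CPM.

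Other members of this list fell with them, with changes of -2.20 (SE 0.34) for Fosb, -1.61 (SE 0.35) for Fos, -1.52 (SE 0.24) for Egr3 and -0.87 (SE 0.16) for the ERK phosphatase gene Dusp5. Nr4a2, an orphan nuclear receptor, was called higher and rose from 34.8, 39.3 and 42.1 CPM to 68.0, 65.9 and 60.2 CPM, or by 0.74 (SE 0.14, edgeR adjusted p 0.000239). Jun (-0.23), Myc (-0.13) and Dusp6 (-0.24) did not pass. With the replicate block Klf4, a zinc finger factor, was also called higher, at 0.45 (edgeR adjusted p 0.00141), after 0.45 (SE 0.19, edgeR adjusted p 0.109) without it. Halofuginone replicate 3 was the highest of its group in 11 of the 15 fallen genes. Without both libraries numbered 3 the list had 12 genes lower and 1 higher, without those numbered 2 it had 8 lower, and in a fit of only both groups 9.

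Genes of sterol and fatty acid synthesis, which SREBP factors control from the ER membrane, rose. Of 32 tested, 20 were called higher and 0 lower, with a median of 0.59. Hmgcs1, which makes the precursor of mevalonate, went from 30.3, 33.0 and 34.3 CPM to 93.9, 111 and 74.2 CPM, a rise of 1.52 (SE 0.19, edgeR adjusted p 4.72e-07). Mvd, a later enzyme of the same pathway, went from 11.7, 19.3 and 15.4 CPM to 42.4, 50.8 and 40.2 CPM, a rise of 1.52 (SE 0.21, edgeR adjusted p 3.20e-06). Every combination library lay above every halofuginone library for both, and below every DMSO library (411, 431 and 464 CPM for Hmgcs1 and 143, 164 and 166 CPM for Mvd).

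Insig1, which holds SREBP in the ER and is itself its target, rose by 1.45 (SE 0.20) and the sterol carrier Stard4 by 1.44 (SE 0.18). With thapsigargin alone the list went the other way, with 0 members higher, 22 lower and a median of -0.56. The difference between both responses was called for 29 of the 32 genes, all more positive with halofuginone, with a median of 1.20. Without single libraries 14 to 18 members were called higher, without both libraries of one number 13 or 14, and with the replicate block 25.

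Beyond these lists, the largest rises by the naming rule held Slco4a1, a transporter of organic anions, Gmppb, which makes the mannose donor of glycosylation, the zinc finger gene Zfp324 (2.96, SE 0.21) and Tmem119 (2.88, SE 0.30), a membrane protein of bone and microglia. Slco4a1 went from 1.33, 1.67 and 3.21 CPM to 21.9, 15.2 and 39.0 CPM, a rise of 3.61 (SE 0.39, edgeR adjusted p 3.47e-07). The groups were separate and the combination libraries spread widely, while thapsigargin alone gave -0.27 (SE 0.35, edgeR adjusted p 0.552) and the difference was 3.88 (SE 0.52, edgeR adjusted p 4.25e-06). Gmppb, which overlaps Rnf123 in the annotation, rose from 5.76, 5.51 and 4.72 CPM to 40.5, 52.5 and 32.9 CPM, or by 2.98 (SE 0.20).

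Among the largest falls were genes of the space around the cell. Timp3, an inhibitor of matrix proteases, went from 617, 623 and 771 CPM to 141, 121 and 205 CPM, a change of -2.11 (SE 0.21, edgeR adjusted p 8.03e-09). Nid1, which links laminin to collagen IV, went from 2388, 2301 and 2671 CPM to 622, 603 and 765 CPM, a change of -1.89 (SE 0.16, edgeR adjusted p 1.71e-10). Both were separate between the groups, and Serpinb2, an inhibitor of plasminogen activators, was too, at -2.11 (SE 0.36). The others were Arc (-2.20), Aldh1a3 (-1.96) and Plin4 (-1.88), of which Plin4 lay under 1.5 CPM in each of the 6 libraries, lost its call without halofuginone replicate 3 or any one combination library and overlaps Hdgfrp2.

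Of 31 collagen and matrix genes 6 were called lower and 2 higher, with a median of -0.20. Fn1, fibronectin, fell from 17872, 16860.0 and 26385 CPM to 9598, 7960.4 and 12698 CPM, at -1.01 (SE 0.23, edgeR adjusted p 0.00261), and Col4a1 and Col4a2 of the basement membrane fell too, with changes of -0.57 and -0.66 and a partly shared annotation. Serpinh1, the collagen chaperone of the ER, rose by 0.76 (SE 0.10). The fibrillar collagen genes Col1a1 (0.02) and Col1a2 (-0.08) did not pass. With the replicate block 14 members were called lower and 6 higher. Fibroblast marker sums overlapped between the groups, as given above, while the fibroblast markers Thy1 and Vim were themselves called lower, at -0.78 and -0.36.

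In the calcium list 3 of 20 genes rose and 2 fell. Atp2a2, the SERCA pump that thapsigargin inhibits, went from 834, 778 and 836 CPM to 1222, 1216 and 1141 CPM, a rise of 0.55 (SE 0.09, edgeR adjusted p 8.10e-05). Rcan1, a target and inhibitor of calcineurin, went from 49.2, 42.8 and 57.6 CPM to 126, 111 and 121 CPM, a rise of 1.26 (SE 0.13, edgeR adjusted p 1.95e-08), and Saraf, a brake on store-operated calcium entry, rose by 0.71. The groups did not overlap in these genes. Stim2, a sensor of ER calcium, fell, at -0.84 (SE 0.15), and so did the release channel Itpr3, at -0.66, a call that was lost without replicate 1 or 2 of the combination or halofuginone replicate 3.

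Of the HSF1 targets 4 rose and 3 fell of 18. Hspa1a and Hspa1b, the inducible cytosolic Hsp70 genes, rose by 1.98 and 1.90, from 7.03, 11.3 and 10.2 CPM to 37.2, 36.2 and 33.4 CPM in the case of Hspa1b. They are near-identical copies, so their counts are uncertain against each other. Hspb1, a small heat shock protein, fell, at -0.73, a call lost without combination replicate 2 or halofuginone replicate 3. With the replicate block 8 rose and 4 fell.

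The remaining lists are given by their counts, to be read against 8.13% of all tested genes called higher and 5.82% lower. The numbers called higher and lower were 1 and 3 of 75 nuclear genes of the respiratory chain, 0 and 0 of 20 mitochondrial proteostasis genes, 3 and 1 of 40 DNA replication genes, 2 and 3 of 32 mitosis genes, 1 and 1 of 82 ribosomal proteins, 0 and 0 of 28 ribosome biogenesis genes, 0 and 0 of 66 histone genes, 1 and 1 of 18 glycolysis genes and 1 and 1 of 14 NRF2 targets. They were 2 and 0 of 12 p53 targets, 3 and 1 of 18 autophagy genes, 0 and 2 of 15 apoptosis genes, 0 and 5 of 20 cytokine and NF-kB genes, and 1 and 0 of 21 interferon-stimulated genes. In all, 25.0% of the cytokine list and 22.2% of the autophagy list were called, more than the 13.9% of all tested genes. The p53 (16.7%), mitosis (15.6%) and NRF2 (14.3%) lists were also above that share, though closer to it. All 13 mRNAs of mitochondrial DNA had negative values (median -0.47) and were lower in all 3 same-numbered pairs, yet 0 were called by edgeR, against 6 with the replicate block and 2 with DESeq2. Under the block the numbers called higher and lower were also 5 and 10 for the nuclear respiratory chain, 5 and 3 for DNA replication, 2 and 11 for mitosis, 2 and 9 for ribosomal proteins, 1 and 1 for ribosome biogenesis, 1 and 3 for glycolysis and 3 and 3 for NRF2 targets. They were 3 and 1 for p53 targets, 2 and 2 for interferon-stimulated genes, 0 and 1 for mitochondrial proteostasis, 0 and 3 for apoptosis and 2 and 7 for cytokines and NF-kB. More of all tested genes were called under the block too, so these block counts are not to be read against 8.13% and 5.82%. The added cytokine genes were the chemokines Cxcl5, at 2.04 (edgeR adjusted p 1.02e-09) under the block and 1.90 (SE 0.68, edgeR adjusted p 0.0597) without it, and Cxcl1, at 0.91 (edgeR adjusted p 0.0191) and 1.10 (SE 0.40, edgeR adjusted p 0.0661). With thapsigargin alone 33 of the 40 replication genes were called lower and 35 of the 66 histone genes higher, and the responses differed for 31 and 29 of them.

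In Perk-null cells the same addition of thapsigargin also raised ER genes. Of the 30 chaperone genes 22 were called higher there and 0 lower, with a median of 1.22, and the difference between genotypes was called for 7, all smaller in Perk-null cells. For translocation and N-glycosylation 19 of 37 were called higher and 9 differed, and for ER to Golgi transport 23 of 38 were called higher and 6 differed, again all smaller in Perk-null cells. Over all tested genes 1.16% were called in that direction. Without replicate 1, 2 or 3 of Perk-null halofuginone the total of 226 genes was 119, 98 or 376, and it was 122 without Perk-null combination replicate 1, 120 without its replicate 3, 119 without WT combination replicate 2 and 148 without WT halofuginone replicate 3.

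Sdf2l1 read 10.5, 10 and 15.7 CPM in Perk-null cells with halofuginone and 166, 169.8 and 149.9 CPM with thapsigargin added, a rise of 3.74 (SE 0.29, edgeR adjusted p 4.36e-11). The Perk-null halofuginone libraries all lay above the WT ones, and the Perk-null response minus the WT response was -2.04 (SE 0.40, edgeR adjusted p 0.00506). Creld2 and Hyou1 rose by 2.84 and 2.01, and differed by -1.35 (SE 0.21) and -1.45 (SE 0.18). For Hspa5 the rise was 2.34 (SE 0.15), from 2672, 2688 and 3019 CPM to 14038, 15729.8 and 12759.8 CPM, and the difference from WT was 0.24 (SE 0.20, edgeR adjusted p 0.688). Xbp1 rose by 0.99, with a difference of -0.64 (SE 0.20, edgeR adjusted p 0.117). The Eif2ak3 counts left in these cells rose as well, by 1.78 (SE 0.19, edgeR adjusted p 3.27e-08).

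The immediate early list had 20 of 28 members lower and 0 higher in Perk-null cells, with a median of -0.77, and 4 differed, all more negative there. Egr1 went from 134, 81.1 and 96.5 CPM to 18.5, 16.9 and 16.6 CPM, a change of -2.58 (SE 0.22). Sterol and fatty acid genes had 21 of 32 members higher and 0 lower, with a median of 0.63, and 0 differed by edgeR. Of the ISR regulators 1 of 16 was called higher in Perk-null cells, namely Ddit3, from 119, 128 and 115 CPM to 195, 252 and 201 CPM, a rise of 0.84 (SE 0.20, edgeR adjusted p 0.00717), and the difference from WT was 0.39 (SE 0.29, edgeR adjusted p 0.633). Slco4a1 had no counts in the Perk-null libraries used here, so no fold is given.

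**Figure D4:**
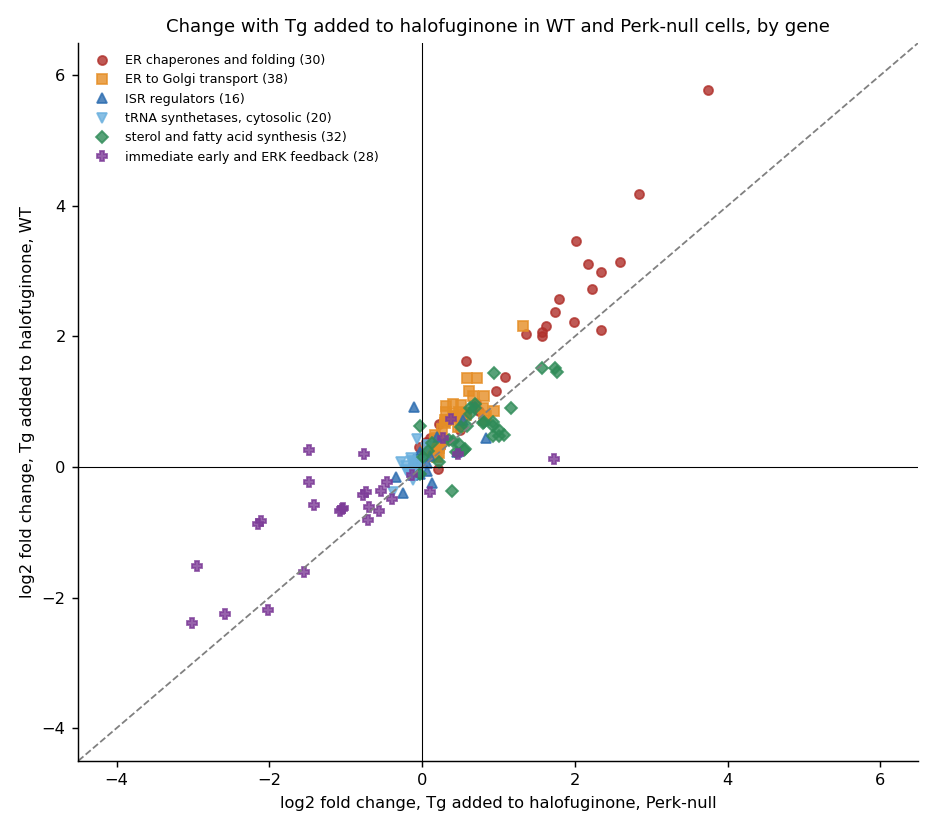
Log2 fold change of each gene of 6 lists with thapsigargin (Tg) added to halofuginone in WT cells (vertical) against that in Perk-null cells (horizontal); the 2 axes share no library, and the dashed line marks equal changes. Of the chaperone genes 28 of 30 and of the ER to Golgi genes 32 of 38 lie above the line, and 21 of 28 immediate early genes lie in the lower left.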

How the data were processed

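Poly(A) or ribosome-depleted RNA (the labels' protocols mention both) of 36 MEF samples was sequenced as strand-specific libraries. The authors deposited one table of estimated counts per gene symbol in which 0.025 stands in place of 0; the submitters' processing notes name DESeq and GRCm39, and the aligner and the use of strand in counting are not given in the sources used here. The values at 0.025 (50.6%) were set to 0 and the others rounded (2.69% were not whole). Left out were 27 entries whose names are numbers (0.206% to 0.278% of counts), and 86 entries of 39 repeated symbols were summed.

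Genes were filtered by filterByExpr (16065 kept) and fitted with robust quasi-likelihood in edgeR 4.0.16 (R 4.3.3), with TMM scaling and 12 group means over all 36 libraries, which share one estimate of spread (24 residual degrees of freedom). P-values were Benjamini-Hochberg adjusted over all 16065 genes per contrast. Alternatives were DESeq2 1.42.0, its size factors, library-size scaling, other filters, only the groups compared, a replicate block and leaving out libraries, and the omission of numbered pairs was chosen after seeing the data. Deviations from the group means of same-numbered halofuginone and combination libraries correlated at 0.218, 0.308 and 0.502, all above 0.1. Their numbers were therefore taken to pair them, in the replicate block only. The main calls come from the fit without a replicate term, which ignores that pairing. Differently numbered pairs gave 0.115 (halofuginone 2 with combination 1) and 0.0921 (halofuginone 1 with combination 2), and -0.369 to -0.261 where one library was a replicate 3. The limit of 0.1 therefore does not by itself tell replicates 1 and 2 apart. The fit was also run on counts simulated from its own estimates of spread, with no replicate effect. That run does not test the error rate under the deviation of replicate 3.

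The comparison and the 32 gene lists were chosen with earlier results of these data known. Named genes were 26 set readouts, the 10 largest rises and falls (edgeR adjusted p under 0.05, average log2 CPM of at least 2, groups apart, more than 3 counts in each library of the lower group), the largest 2 each way in each list, all tested members of lists of up to 7 genes, and the 5 largest each way of the differences. Other list members were named after their values were seen. Symbols matched RefSeq promoters for 11756 of 16065 tested genes.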

Additional observations from a re-analysis of the deposited data

Results flagged for a closer look

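The response to thapsigargin in WT cells differed with and without halofuginone for 5047 genes, by a test of the difference in edgeR. Given as the change on top of halofuginone minus the change alone, the differences of genes of the ER and calcium were -1.75 for Hspa5, -0.79 for Dnajb9, 1.63 for Sdf2l1, -2.52 for Herpud1, -1.56 for Ern1, -2.19 for Atf6, 1.98 for Scara3 and -0.88 for Atp2a2. Genes of the ISR were more negative throughout, with -1.74 for Atf4, -4.21 for Ddit3, -5.94 for Atf3, -3.76 for Trib3, -3.34 for Chac1, -1.84 for Asns, -1.0 for Psat1, -4.10 for Ppp1r15a and -4.89 for Gdf15. The WT DMSO libraries held 0, 6 and 0 counts of Gdf15, so its fitted value depends on the prior count and is no bound. The most positive differences among well counted genes were 3.88 for Slco4a1, 3.54 for Trib2, 3.46 for Dna2 (a nuclease of DNA replication), 3.45 for Tmem119 and 3.13 for Kif26b. The most negative beside Atf3 were -5.86 for Avil (an actin-severing protein), -5.32 for Cxcl10 (a chemokine induced by interferon), -4.77 for Gadd45a (a growth arrest gene) and -4.73 for Adm2 (a secreted peptide).

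The response on top of halofuginone differed between Perk-null and WT cells for 226 genes by the same kind of test. Perk-null minus WT, the ER chaperone genes had -0.93 for Dnajb9, -0.69 for Dnajb11, -2.04 for Sdf2l1 and -1.35 for Creld2. The most positive differences were 1.61 for Hist1h2bc, 1.44 for Hist1h2be and 1.43 for Hist1h2bg, which are near-identical histone copies whose counts are uncertain, with 1.51 for Cxcl10 and 1.48 for Pappa, a protease of growth factor binding proteins. The most negative were -2.23 for Tmem180, -2.16 for Foxs1, -2.02 for Tmem119 and -1.95 for Usp17la.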

How the results depend on the processing

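The number of genes called for thapsigargin on top of halofuginone in WT cells was 2241. It was 770 in a fit of only both groups compared, 3930 with the replicate block, between 1384 and 2222 with 1 library left out, and 1354 and 1226 without the libraries numbered 1 or 2. The fit of only both groups has fewer residual degrees of freedom and takes its spread from these libraries alone. In that fit the numbers called higher were 22 of 30 ER chaperone genes, 11 of 23 ERAD genes, 22 of 37 translocation and N-glycosylation genes and 26 of 38 ER to Golgi genes. DESeq2, its size factors, library-size scaling, and other filters stayed within 1.5 times. The number for the difference between genotypes was 226. It was 423 with DESeq2, 402 without the filter on low counts, 59 with only the groups compared, between 98 and 376 with 1 library left out, and 118, 111 and 147 without the WT halofuginone and combination libraries numbered 1, 2 or 3. With the replicate block it was 964, although the Perk-null pair numbered 1 correlated at 0.0441 and the numbers are not taken to pair those libraries. The number for the difference with and without halofuginone, 5047, stayed within 1.5 times in every alternative, at 6863 with the block, where the DMSO pair numbered 1 correlated at 0.0412. Library-size scaling moved the share called higher there from 47.8% to 58.2%, and shifted the median of all genes by 0.08 on top of halofuginone and 0.10 in the difference. The causes of these changes were not tested. Beside those given in the report, the block changed no call of the genes named there other than Cnpy2, Ppib and Sdf2, which passed. With 3 libraries a group, a change that did not pass was not detectable against the spread, which does not show that it is absent.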

Other observations

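Some genes were called in opposite directions with thapsigargin on top of halofuginone and with thapsigargin alone. They were picked after their values were seen, and no explanation was tested. Of the sterol and fatty acid list 11 genes rose on top of halofuginone and fell alone, among them Hsd17b7 (0.91 and -1.19). Outside the lists, the tendon transcription factor gene Scx changed by 1.67 on top of halofuginone and by -1.35 alone. Its levels were low, at 0.155, 0.205 and 0.216 CPM with halofuginone and 0.548, 1.05 and 0.255 CPM with thapsigargin added. Scx also overlaps Bop1 in the annotation. Smad6, an inhibitor of BMP signalling, changed by 1.36 and -1.07. It read 1.55, 1.67 and 5.37 CPM with halofuginone and 3.84, 4.04 and 14.1 CPM with thapsigargin added, so that these groups overlapped. Wdr6, a tRNA modification partner, went from 29.6, 33.2 and 38.8 CPM to 55.2, 72.5 and 69.5 CPM on top of halofuginone and from 308, 315 and 337 CPM to 113, 122 and 137 CPM alone, changes of 0.95 and -1.37.

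In the other direction, Mt2, a metal-binding metallothionein, went from 91.4, 122 and 109 CPM to 60.9, 55.4 and 61.1 CPM on top of halofuginone and from 5.52, 7.90 and 6.07 CPM to 20.7, 28.1 and 18 CPM alone. The changes were -0.86 and 1.78, both called by edgeR (Benjamini-Hochberg adjusted p 0.0148 and 1.92e-06). Slco2a1, a prostaglandin transporter, changed by -1.20 and 1.07, and Klf5, a zinc finger factor, by -0.84 and 1.20.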
